A study of Homo sapiens with 4 samples.

Results

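The loci of 7 genes that regulate the trophoblast lineage (ELF5, GATA2, GATA3, CDX2, TFAP2A, TEAD4 and HAND1) were followed through 4 bisulfite sequencing libraries of a human embryonic stem cell line. Members were all cytosines with at least 5 reads in all 4 libraries inside a fixed hg19 span around each gene, extended by 5 kb on each side. The rule found 166 cytosines (156 CpG sites) of 907719 in the whole series. TEAD4 held 54 of them, HAND1 36, ELF5 34, TFAP2A 25, GATA2 11, GATA3 3 and CDX2 3. Cytosines of a locus share reads and are no replicates of a condition.

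The study set cells lacking B3GALT5, a galactosyltransferase of glycosphingolipid synthesis, beside wild-type cells of the H9 line in the primed and the naive pluripotent state. The groups were wild-type (WT) primed cells in basal medium, B3GALT5-/- (KO) primed cells in basal medium, WT naive cells in 5iLAF medium and KO naive cells in 2iLAF medium. Each group held 1 library, so no difference below has a replicate check and no p-value compares conditions. The naive libraries differed in genotype and in medium, and these cannot be told apart. The labels do not say whether the KO cells came from a single clone. Only bisulfite libraries were analysed here, so the cells' identity was not checked against marker genes, and the deletion of B3GALT5 was not checked in these libraries.

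CpG methylation marks cytosines in most of a somatic genome, is usually absent from active CpG-dense promoters, and falls over much of the genome when human embryonic stem cells enter the naive state. ELF5 is an ETS-family factor whose promoter is a known epigenetic gate: it is methylated in embryonic stem cells and unmethylated in trophoblast stem cells. TEAD4 binds DNA for the Hippo-pathway coactivators and acts upstream of the homeobox factor CDX2 in the mouse trophectoderm, while GATA2, GATA3 and TFAP2A are zinc-finger and AP-2 factors of the human trophoblast, and HAND1 is a basic helix-loop-helix factor of trophoblast giant cells and extraembryonic mesoderm.

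The libraries summed 24570785 (WT primed), 28450230 (KO primed), 23916547 (WT naive) and 40697882 reads (KO naive) over their listed cytosines. Wherever 4 values are given in library order below, they follow this order. At the members the median was 13.5, 16, 13 and 22 reads, and no member had over 100 reads. The tables hold no row without a methylated read, so an unlisted cytosine had either no coverage or no methylated read. Members are therefore sites with some methylation in all 4 libraries, and their levels say nothing of fully unmethylated sites. Of the members 92.2% lay on the minus strand, against 84.98% of all cytosines. A level is a share of reads, and fewer methylated cells cannot be told apart from fewer methylated alleles per cell.

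The promoter sequences show how different these genes are before any level is read. ELF5, the gate, is CpG-poor, CDX2 lies near the median of RefSeq promoters, and GATA2 is CpG-rich. The 250 bases before the RefSeq start (RefSeq, GRCh38.p14) are given 5′ to 3′ on the strand of the gene, which is the minus strand for all 3. Capitals mark CpG sites at which a methylated read was listed in any of the 4 libraries.
ELF5 promoter: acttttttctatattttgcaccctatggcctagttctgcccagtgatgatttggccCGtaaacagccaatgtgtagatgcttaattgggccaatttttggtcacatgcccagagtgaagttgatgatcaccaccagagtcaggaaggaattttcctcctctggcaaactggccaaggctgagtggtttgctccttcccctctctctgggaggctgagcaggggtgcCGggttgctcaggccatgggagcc
CDX2 promoter: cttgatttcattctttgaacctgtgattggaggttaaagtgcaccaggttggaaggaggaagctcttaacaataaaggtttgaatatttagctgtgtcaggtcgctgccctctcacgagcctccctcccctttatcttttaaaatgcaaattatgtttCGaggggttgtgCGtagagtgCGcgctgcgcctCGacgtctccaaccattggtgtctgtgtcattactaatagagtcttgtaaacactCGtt
GATA2 promoter: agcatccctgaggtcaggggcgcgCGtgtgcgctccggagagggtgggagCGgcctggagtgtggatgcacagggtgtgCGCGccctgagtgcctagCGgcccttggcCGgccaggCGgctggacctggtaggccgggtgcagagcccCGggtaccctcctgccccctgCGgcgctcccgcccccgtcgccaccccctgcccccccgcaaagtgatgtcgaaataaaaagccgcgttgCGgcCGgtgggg
No genome of the files' build was used, so each sequence was placed in hg19 by matching the spacing of its CpG sites to the listed positions, and no coordinates were converted. All 14 listed positions fell on CpG sites of the GATA2 window and all 7 on those of CDX2, where the next best offset matched 3 and 2. The ELF5 window rests on only 2 matched sites, against 1 at the next best offset, and its place is less certain. Starts were placed at 34533271 on chromosome 11 (ELF5), 128212044 on chromosome 3 (GATA2) and 28543452 on chromosome 13 (CDX2). For HAND1 and TFAP2A 5 and 7 listed positions fitted, giving starts at 153857787 on chromosome 5 and 10419892 on chromosome 6. For GATA3 1 of its RefSeq entries could be placed, by 6 listed positions against 2 at the next best offset, with the start at 8091817 on chromosome 10. Entries were found for 6 of the 7 genes, and the other was TEAD4. The ELF5 window of 300 bases (50 of them after the start) held 2 CpG sites, a number that 18.2% of 35116 RefSeq promoters did not exceed. CDX2 held 16, TFAP2A and the placed GATA3 entry 18 each, HAND1 21 and GATA2 29, against a median of 14.

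Levels of the 166 cytosines averaged 57.2% ± 38.1 in WT primed, 61.9% ± 35.6 in KO primed, 54.6% ± 28.1 in WT naive and 54.4% ± 27.4 in KO naive (SD over cytosines). The autosomal mean of the whole series was 80.7%, 81.7%, 58.1% and 59.3% in the same order. The members thus lay below the genome in the primed libraries and a few points below it in the naive ones. From primed to naive their mean fell by 2.61 percentage points in WT and by 7.50 in KO, while the autosomal mean fell by 22.6 points in WT and fell by 22.4 in KO. Those small means hide opposite movements. ELF5 and TEAD4, both highly methylated in the primed libraries, were lower in the naive ones, and TFAP2A, low in WT primed cells, was higher. HAND1 was higher as well, but its rise lay in 1 upstream tile whose gain was known when the span was drawn, and its direction is therefore given as a description. In the primed libraries the loci fell into 2 classes: TEAD4 and ELF5 averaged 82.1 to 89.8%, and GATA2, HAND1, TFAP2A, GATA3 and CDX2 18.1 to 49.7%. Within each class neighbouring loci differed by less than the SD over their cytosines.

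**Figure D1:**
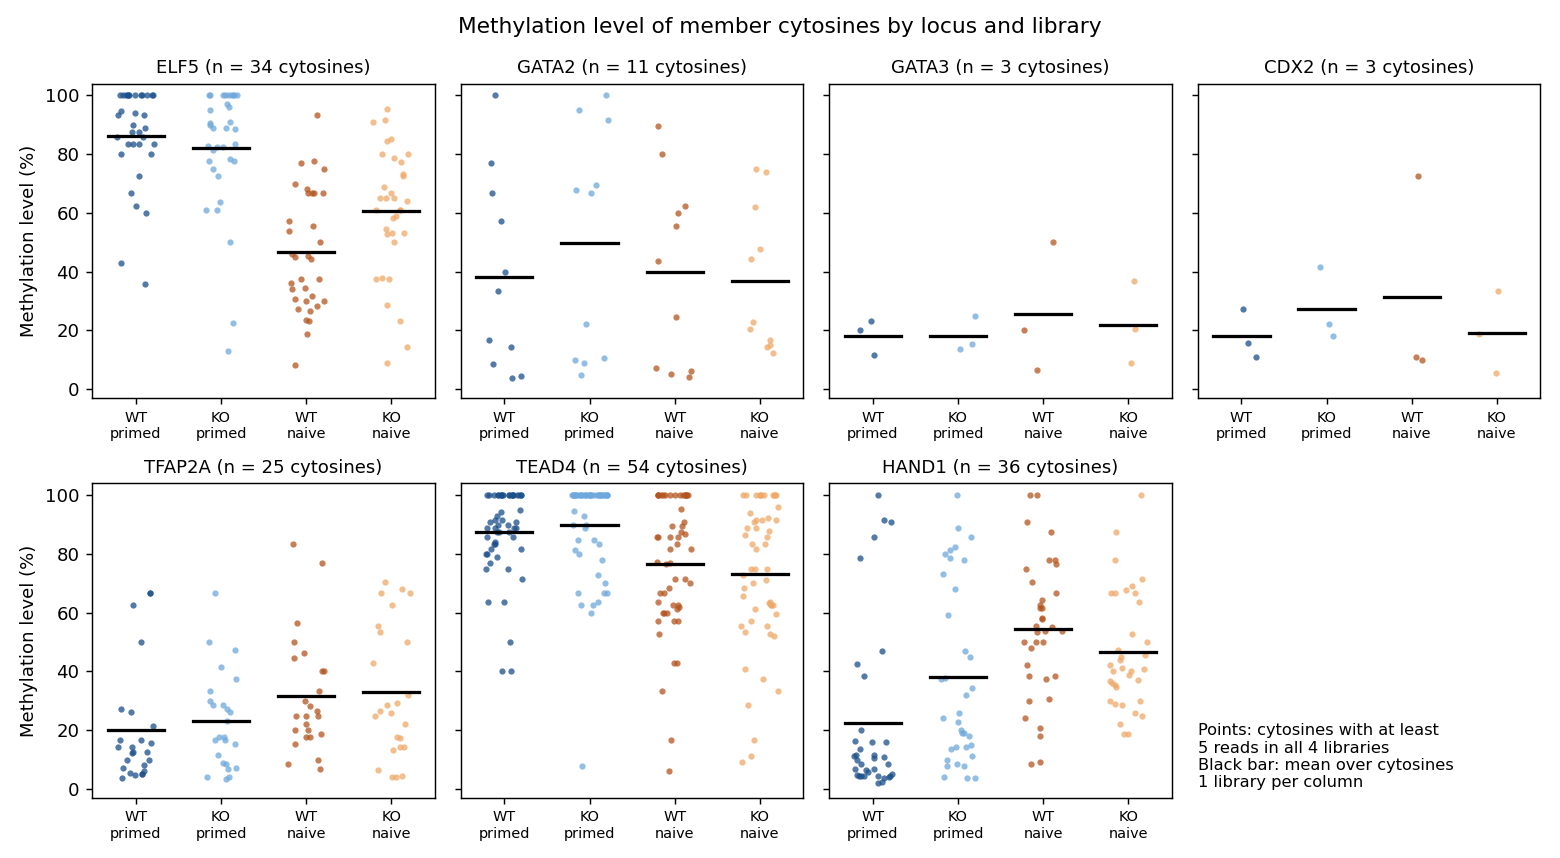
Methylation level (%, vertical axis) of each member cytosine (points, at least 5 reads in all 4 libraries) by locus and library, with the mean as a black bar; 1 library per column. ELF5 points drop from a mean of 86.3% in WT primed to 46.6% in WT naive, whereas HAND1 points climb from 22.5% to 54.3%, mostly in 1 upstream tile known beforehand for its gain.

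The comparison of WT naive with WT primed cells asked how the 2 pluripotent states differed at these loci. By a two-sided Fisher's exact test per cytosine with Benjamini-Hochberg adjustment over the whole table (adjusted p under 0.05 and at least 25 points), 13 members were lower and 19 higher in the naive library. Over the series 16.2% of cytosines were called lower and 0.442% higher. The losses stand below that share of the 166 members, but the starting levels differ. In WT primed 33.1% of members stood at 20% or below, against 3.89% of autosomal cytosines, and such sites cannot fall by 25 points. The gains, adjusted or not, are not read against the background, because most lay in a tile described next. The test treats reads as independent and compares 2 libraries, not conditions. When read counts were divided by the excess variance seen between strands, 0 members were called in any comparison. The divisors of 2.61 to 4.02 left few reads per member, so this setting could detect little and its 0 decides nothing. At an unadjusted p under 0.05, 29 members were lower and 31 higher, beside 28.8% and 1.34% of all cytosines. The 13 losses were 9 at ELF5, 2 at GATA2, 1 at TEAD4 and 1 at HAND1, and the 19 gains were 17 at HAND1, 1 at GATA2 and 1 at TFAP2A. Of the 17 HAND1 gains, 15 lay in 1 tile of 1 kb (chr5:153873001-153874000) that an earlier look at these data had ranked among the largest gains; its presence here was known when the span was drawn. Without that tile 13 of 138 members were lower and 4 higher, and the mean fell by 11.1 points. At an unadjusted p under 0.05 the numbers without it were 28 lower and 9 higher. Weighted by reads, the mean of all members rose by 8.56 points instead of falling.

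In KO cells the same comparison of naive with primed called 20 members lower and 5 higher, against 18.2% and 0.242% of all cytosines. The losses were again below the background share. The starting levels differed here too, with 22.9% of members at 20% or below in KO primed, against 3.51% of autosomal cytosines. At an unadjusted p under 0.05 the numbers were 33 and 11, beside 31.7% and 0.784%. The losses were 9 at TEAD4, 7 at ELF5, 2 at GATA2 and 2 at HAND1, and the gains 3 at HAND1 and 2 at TFAP2A. Without the HAND1 tile 19 were lower and 3 higher, and the mean fell by 11.7 points. At an unadjusted p under 0.05 the numbers without it were 30 lower and 7 higher. By the rule of size for 1 kb tiles (5 or more cytosines, a mean shift of 25 points or more, and 80% or more of the cytosines shifting that way, no test), 2 of the 9 member tiles were lower and 1 higher in WT, beside 36.8% and 0.536% of all tiles. In KO 1 of 9 was lower and 0 higher, beside 36.2% and 0.162%. Both lower tiles in WT and the lower one in KO were at ELF5. The higher tile in WT was the HAND1 tile known beforehand for its gain, so it is not read against the share of all tiles. Without that tile 0 were higher.

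ELF5 was the locus with the largest loss in both genotypes. Its 34 cytosines averaged 86.3% ± 16.4 in WT primed, 82.1% ± 21.0 in KO primed, 46.6% ± 20.4 in WT naive and 60.5% ± 21.5 in KO naive. Both naive libraries lay below both primed ones. Pooled over reads, the level was 84.4% in WT primed (Wilson 95% interval 80.2 to 87.8%) and 43.8% in WT naive (40.1 to 47.6%), and 80.1% in KO primed (76.8 to 83.05%) and 61.1% in KO naive (57.9 to 64.3%). These intervals cover counting error only. They take the counts as independent, though cytosines of a locus share reads, so they are too narrow. From primed to naive 33 of 34 cytosines were lower in WT and the mean fell by 39.7 points, and 27 of 34 were lower in KO, where it fell by 21.6. Any decrease, however small, was seen at 76.8% of all cytosines in WT and at 84% in KO. The WT loss is larger than the autosomal one of 22.6 points and the KO loss close to it, but neither genotype had a second library.

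Along ELF5 the members fell into 4 tiles, described in order from the side upstream of the placed start to the gene body. The tile 1.73 to 2.73 kb upstream of the placed start (chr11:34535001-34536000) held 24 cytosines and averaged 87.1% ± 12.4 in WT primed, 84.4% ± 15.0 in KO primed, 46.6% ± 18.2 in WT naive and 62.1% ± 16.0 in KO naive. This tile lies inside the ELF5 span, which ends at 34536000. The placed start rests on only 2 CpG sites, so the distance of the tile from the gene's start is uncertain. All 24 cytosines were lower in WT naive than in WT primed, and 20 of 24 were lower in KO naive than in KO primed. WT passed the rule of size there and KO, at -22.3 points, did not.

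The neighbouring tile 0.730 to 1.73 kb upstream (chr11:34534001-34535000) held 5 cytosines at 72.5%, 64.7%, 40.7% and 36.8% in the library order. It was the only member tile past the rule in both genotypes, at -31.9 points in WT and -27.8 in KO. Its cytosine at 34534481 showed the clearest loss of the locus in KO: 18 of 20 reads were methylated in WT primed, 29 of 32 in KO primed, 11 of 39 in WT naive and 7 of 30 in KO naive. The adjusted p of Fisher's exact test was 0.00026 in WT and 6.05e-06 in KO. Within this tile sites differed strongly, since the cytosine at 34534516 kept 30 of 39 methylated reads in WT naive and 27 of 32 in KO naive.

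At the start of ELF5 both CpG sites of the printed promoter are members, and they behaved differently. The site 24 bases before the placed start (34533295) was methylated in 7 of 8 reads in WT primed, 18 of 23 in KO primed, 3 of 10 in WT naive and 8 of 15 in KO naive. The site 194 bases before it (34533465) was methylated in 18 of 19, 24 of 25, 14 of 15 and 15 of 23 reads in the same order. In WT naive cells the proximal site was thus at 30.0% and the distal one still at 93.3%. The distal site was called lower in KO naive than in KO primed (-30.8 points, adjusted p = 0.0477 by Fisher's exact test), and at 8 to 23 reads the proximal site was called in neither genotype.

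The 3 gene-body cytosines of ELF5 (chr11:34514001-34515000, 18.3 to 19.3 kb into the gene) separated the naive libraries. They averaged 100% in WT primed, 89.3% in KO primed, 45.9% in WT naive and 87.9% in KO naive, so WT naive stood alone at these sites. The sites lie between 34514295 and 34514338 and had 5 to 6 reads in WT primed. At 34514338 the methylated reads were 6 of 6, 8 of 9, 4 of 15 and 20 of 22. This site was called lower from primed to naive in WT (-73.3 points, adjusted p = 0.0287) and higher in KO naive than in WT naive (64.2 points, adjusted p = 0.026), both by Fisher's exact test. These comparisons share the WT naive library. Elsewhere in the gene body, listed sites with at least 5 reads had lower medians in KO naive than in KO primed. The medians were 50% against 100% at chr11:34503001-34504000 and 69.2% against 78.6% at chr11:34523001-34524000. At chr11:34527001-34528000 they were 56.25% against 100%. WT naive had no site with 5 reads in these tiles, and the medians rest on few cytosines.

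**Figure D2:**
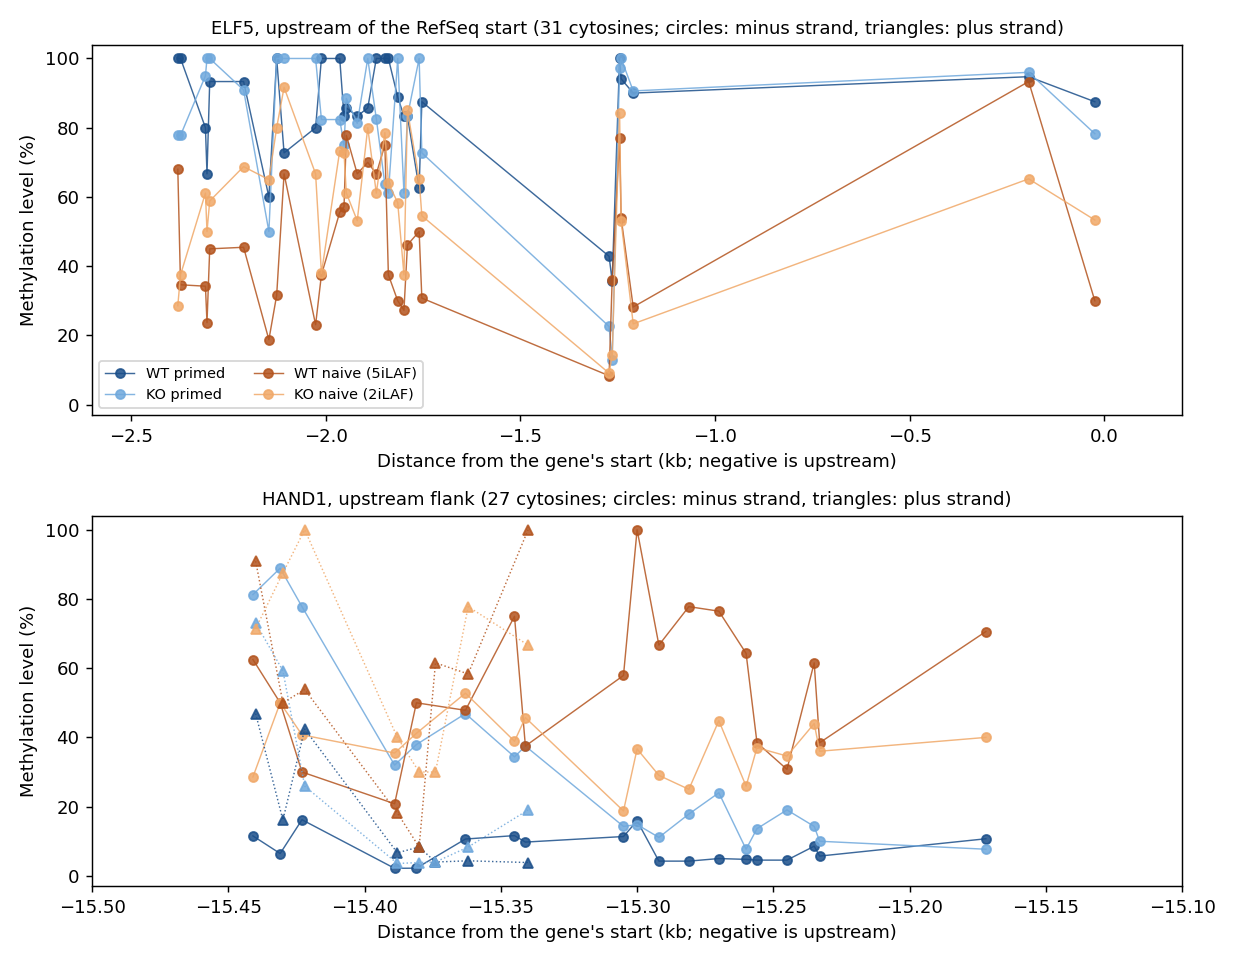
Methylation level (%, vertical axes) against distance from the placed gene start (kb, negative is upstream) for 31 ELF5 cytosines and for 27 cytosines of the HAND1 upstream flank, 26 of them in the tile described in the text; blue lines are primed and orange lines naive libraries, circles the minus and triangles the plus strand. Both naive libraries run below the primed ones over most of the ELF5 cytosines shown, and above WT primed over most of the HAND1 flank.

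TEAD4, the Hippo-pathway factor, was the most highly methylated locus in all 4 libraries. Its 54 cytosines, spread over the gene body, averaged 87.5% ± 14.6 in WT primed, 89.8% ± 17.4 in KO primed, 76.5% ± 22.3 in WT naive and 73.1% ± 24.6 in KO naive. The mean fell by 10.99 points in WT and fell by 16.7 in KO, each less than the autosomal fall. The lowest naive means among tiles with more than 1 cytosine lay toward the 5′ side of the gene. At 3096105 the methylated reads were 8 of 9 in WT primed, 10 of 10 in KO primed, 2 of 32 in WT naive and 4 of 24 in KO naive (adjusted p = 0.000187 in WT and 0.000257 in KO by Fisher's exact test). At 3085674 they were 7 of 7, 11 of 11, 3 of 7 and 1 of 9, called in KO (-88.9 points, the largest loss of any member there, adjusted p = 0.00142 by Fisher's exact test). The 4 cytosines of that tile (chr12:3085001-3086000) averaged 93.8%, 93.3%, 44.8% and 28.3%, and no primed value overlapped a naive one.

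Farther into TEAD4, in 8 of the other 9 tiles, both naive means lay at 64.2% or above. The exception was the single cytosine of chr12:3130001-3131000, at 50% in WT primed, 100% in KO primed, 16.7% in WT naive and 72.7% in KO naive. The tile chr12:3131001-3132000, the largest of the gene with 12 cytosines, averaged 88.7% ± 7.75 in WT primed, 98.3% ± 4.58 in KO primed, 79.0% ± 12.6 in WT naive and 77.1% ± 16.8 in KO naive. The tile chr12:3147001-3148000 with 7 cytosines was at 82.8%, 84.1%, 89.8% and 89.0%, so that it was slightly higher in the naive libraries. The tile chr12:3146001-3147000 with 5 cytosines was at 87.8%, 95.6%, 72.2% and 71.2%, with 3 sites called lower in KO. None of the 5 TEAD4 tiles with at least 5 cytosines passed the rule of size in any comparison. The calls in KO reached farther than in WT, with 5 of the 9 at 3131061, 3131089, 3146158, 3146202 and 3146949. At those sites KO naive had 24 to 37 reads and WT naive 7 to 21.

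**Figure D3:**
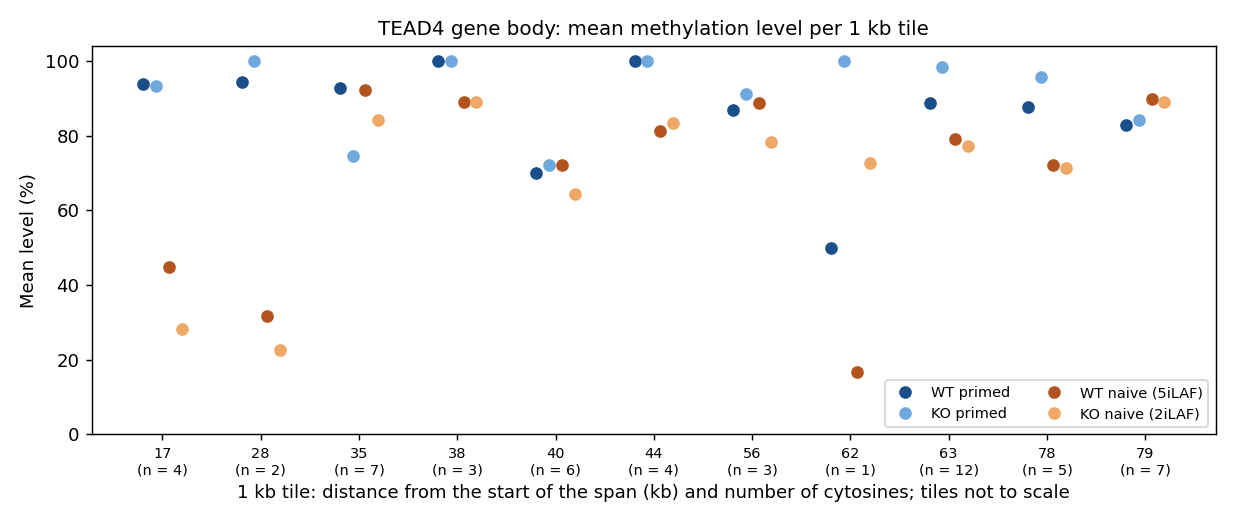
Mean methylation level (%, vertical axis) of the 11 TEAD4 tiles of 1 kb that hold members, ordered by distance from the start of the span (kb; tiles not to scale) with the number of cytosines n; blue points are primed and orange points naive libraries. In the tiles at 17 and 28 kb the naive points lie at 22.6 to 44.8%, far below the primed ones, the 1 cytosine at 62 kb stands at 16.7% in WT naive, and in the last tile the naive points lie above the primed ones.

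CDX2, the caudal homeobox factor, had only 3 members, too few for a tile. They averaged 18.1% ± 8.32 in WT primed, 27.4% ± 12.6 in KO primed, 31.3% ± 35.9 in WT naive and 19.2% ± 13.9 in KO naive. The change of WT naive came from the cytosine at 28542267, 1.19 kb into the gene, which was methylated in 1 of 9 reads in WT primed, 2 of 9 in KO primed, 8 of 11 in WT naive and 1 of 18 in KO naive. It was called lower in KO naive than in WT naive (-67.2 points, adjusted p = 0.0476 by Fisher's exact test), close to the threshold. The other two members were at 10% and 11.1% in WT naive and 18.8 and 33.3% in KO naive, and were not called.

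The GATA factors were low and mixed. The 11 GATA2 cytosines averaged 38.3% ± 32.8 in WT primed, 49.7% ± 38.6 in KO primed, 39.9% ± 31.9 in WT naive and 36.8% ± 24.7 in KO naive, spreading from 3.70% to 100%. The sharpest loss lay 5.10 kb upstream of the placed start, at 128217139, with 10 of 13 methylated reads in WT primed, 19 of 28 in KO primed, 1 of 19 in WT naive and 3 of 18 in KO naive (adjusted p = 0.00112 in WT and 0.00938 in KO by Fisher's exact test). Its neighbour at 128217092 went from 100% and 91.7% in the primed to 43.8% and 47.6% in the naive libraries and was called in both genotypes. Nearer the gene, at 128216133, WT primed stood apart: 2 of 23 reads were methylated there, against 16 of 23 in KO primed, 10 of 18 in WT naive and 13 of 21 in KO naive. That site was called higher in WT naive (46.9 points, adjusted p = 0.0159) and in KO primed (60.9 points, adjusted p = 0.0232), by Fisher's exact tests that share the WT primed library. GATA3 had 3 members, at 18.2% ± 5.97, 18.1% ± 6.06, 25.6% ± 22.2 and 22.01% ± 14.1 in the library order, with 0 calls by Fisher's exact test and 0 sites at an unadjusted p under 0.05 in any of the 4 comparisons.

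TFAP2A, the AP-2 factor, was low in the primed libraries and higher in both naive ones. Its 25 cytosines averaged 20.1% ± 19.7 in WT primed, 23.1% ± 16.3 in KO primed, 31.5% ± 19.6 in WT naive and 32.9% ± 22.5 in KO naive. Without the 5 kb flanks 9 cytosines were left, at 26.5%, 23.1%, 29.5% and 33.8% in the library order. Inside the span WT naive thus stood close to WT primed, and most of the WT rise lay in the flanks. The rise was 11.4 points in WT, with 19 of 25 cytosines higher, and 9.75 points in KO, with 16 of 25 higher. Any increase was seen at 17.3% of all cytosines in WT and at 13.4% in KO. These shares cannot be set against each other, because the starting levels differ and low sites have little room to fall. In WT primed 72% of the TFAP2A cytosines stood at 20% or below, against 3.89% of the autosomal ones. Single sites passed the test in few cases. At 10393498 the methylated reads were 2 of 14, 4 of 12, 5 of 6 and 12 of 17 in the library order, called in WT (69.0 points, adjusted p = 0.0442 by Fisher's exact test). At 10422622, 2.73 kb upstream of the placed start, they were 1 of 8, 1 of 15, 4 of 8 and 12 of 18, called in KO (60.0 points, adjusted p = 0.00918 by Fisher's exact test). The tile around that site (chr6:10422001-10423000, 6 cytosines), the only one of the gene with at least 5, averaged 9.26%, 22.2%, 24.8% and 26.5% in the same order, so WT primed was the lowest there.

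HAND1 held 17 of the 19 gains in WT, and most of them sat in a cluster far upstream. Its 36 cytosines averaged 22.5% ± 29.3 in WT primed, 38.1% ± 30.4 in KO primed, 54.3% ± 23.3 in WT naive and 46.5% ± 19.8 in KO naive. The cluster is the tile chr5:153873001-153874000, which lies 15.2 to 16.2 kb upstream of the placed start and holds 28 of the 36. It averaged 16.6% ± 24.8 in WT primed, 33.5% ± 28.0 in KO primed, 55.7% ± 23.2 in WT naive and 46.5% ± 20.2 in KO naive. From primed to naive 25 of the 28 were higher in WT and 22 in KO, by 39.2 and 12.96 points on average. At 153873087 the methylated reads were 7 of 44 in WT primed, 4 of 27 in KO primed, 19 of 19 in WT naive and 11 of 30 in KO naive (adjusted p = 3.03e-08 in WT by Fisher's exact test). The WT naive library stood above the other 3 at this site, and it was called lower in KO naive than in WT naive (-63.3 points, adjusted p = 0.00371 by Fisher's exact test). The gain of this tile in WT naive was known when the span was drawn. The p-values inside it therefore describe reads and are no support for the gain.

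In the same HAND1 tile KO primed differed from WT primed in the distal part of the cluster. At 153873218 the methylated reads were 2 of 31 in WT primed and 16 of 18 in KO primed (82.4 points, adjusted p = 2.98e-05 by Fisher's exact test), with 4 of 8 in WT naive and 12 of 24 in KO naive. At 153873210 they were 6 of 37 in WT primed and 14 of 18 in KO primed, and at 153873228 3 of 26 and 13 of 16, both called. Because the tile was known for gains over the same WT primed library, these calls are given as a description. The strands of the same CpG sites did not read alike. Among the 7 CpG sites of the tile seen on both strands, the minus strand was higher in KO primed at all 7, and the plus-strand level less the minus-strand level ran from -8.17 to -51.9 points. At the site 153873209/153873210 the plus strand was lower in KO primed (25.9%) than in WT primed (42.4%), while the minus strand was higher (77.8% against 16.2%). The part of strand in the difference between KO and WT primed was not tested. When strands were merged, 3 members in all were called higher in KO primed.

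Outside that tile HAND1 did not move one way. The remaining 8 cytosines averaged 43.1% in WT primed, 54.0% in KO primed, 49.5% in WT naive and 46.4% in KO naive, with 4 lower and 4 higher from primed to naive in each genotype. Without the tile the mean of HAND1 rose by 6.37 points in WT and fell by 7.60 in KO. At 153865824, 8.04 kb upstream of the placed start, the reads were 1 of 15, 5 of 22, 11 of 20 and 18 of 26, called higher in WT and in KO (48.3 and 46.5 points). At 153867548 they were 5 of 13, 15 of 22, 1 of 11 and 3 of 16, called lower in KO (-49.4 points, adjusted p = 0.0251 by Fisher's exact test).

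KO was compared with WT within each state to ask how these loci differed between cells with and without B3GALT5. Among primed libraries 5 members were higher in KO and 0 lower by the Fisher test, beside 0.216% and 0.103% of all cytosines; at an unadjusted p under 0.05 the numbers were 14 and 0, beside 4.65% and 3.25%. The 5 were 4 at HAND1, all in the flank tile, and 1 at GATA2. Since that tile was known for gains over the same WT primed library, neither count of higher members is read against the background. Outside it 1 of 138 members was called higher, and 4 were higher and 0 lower at an unadjusted p under 0.05. By any amount 87 members were higher and 57 lower, beside 41.4% and 39% of all cytosines. Outside the tile these numbers were 66 and 51 of 138. The mean of all members was 4.63 points higher in KO primed, against 0.999 for the autosomes, and 2.13 points higher without the HAND1 tile. ELF5 differed by -4.23 points and TEAD4 by 2.24, with 0 calls each and with 1 and 0 sites at an unadjusted p under 0.05. Among naive libraries 2 members were lower and 1 higher in KO, beside 0.218% and 0.391% of all cytosines: the CDX2 site at 28542267, the HAND1 site at 153873087 and the ELF5 site at 34514338. At an unadjusted p under 0.05, 11 were lower and 12 higher, beside 4.77% and 6.75% of all cytosines. Outside the HAND1 tile the numbers were 5 and 11. The mean of all members differed by -0.261 points. ELF5 was 13.9 points higher in KO naive, with 26 of 34 cytosines higher, 8 of them at an unadjusted p under 0.05; any increase was seen at 50% and any decrease at 47.7% of all cytosines. Of the 9 tiles 0 passed the rule of size in either state, beside 0.8% of tiles lower and 1.54% higher among primed and 2.21% lower and 3.33% higher among naive libraries.

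The levels above miss what happened at sites without methylation in some library, and the number of listed cytosines shows it. In the 7 spans 1408 cytosines were listed in any library: 441 in WT primed, 528 in KO primed, 842 in WT naive and 1040 in KO naive. The whole series listed 2109788, 2204054, 2018895 and 2340330 in the same order, so naive over primed was 0.957 in WT and 1.06 in KO for the series, and 1.91 and 1.97 for the members' spans. Of the 1408 cytosines 37.6% were listed in WT naive and not in WT primed, against 12.1% in the series, and 9.09% the other way, against 15.3%. In KO the shares were 44.2% against 14% and 7.81% against 9.18%. Summed over listed cytosines, WT naive had fewer reads than WT primed and KO naive more than KO primed. That sum leaves out unlisted cytosines, so it does not measure the depth of a library. The median depth of a listed cytosine was 11, 12, 10 and 15 reads in the spans and 7, 8, 8 and 13 in the series. The share that depth or coverage has in these counts was not tested.

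The gain in listed cytosines lay at CDX2, GATA2, GATA3, TFAP2A and HAND1. CDX2 had 31, 33, 132 and 131 listed cytosines in the library order, which is 4.26 times as many in naive as in primed WT cells and 3.97 times in KO. GATA3 went from 18 and 30 to 58 and 91, GATA2 from 49 and 69 to 132 and 197, TFAP2A from 90 and 95 to 212 and 250, and HAND1 from 79 and 88 to 119 and 157. ELF5 (53, 57, 62 and 55) and TEAD4 (121, 156, 127 and 159), already methylated in primed cells, had naive over primed ratios of 0.965 to 1.17. Counting only cytosines with at least 5 reads and a level of at least 20%, a limit added after seeing the data, CDX2 had 12, 10, 66 and 37, TFAP2A 27, 26, 105 and 96, GATA2 14, 26, 47 and 55, and GATA3 4, 4, 19 and 20. For the series this count was 1337817, 1459563, 1267687 and 1627715.

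**Figure D4:**
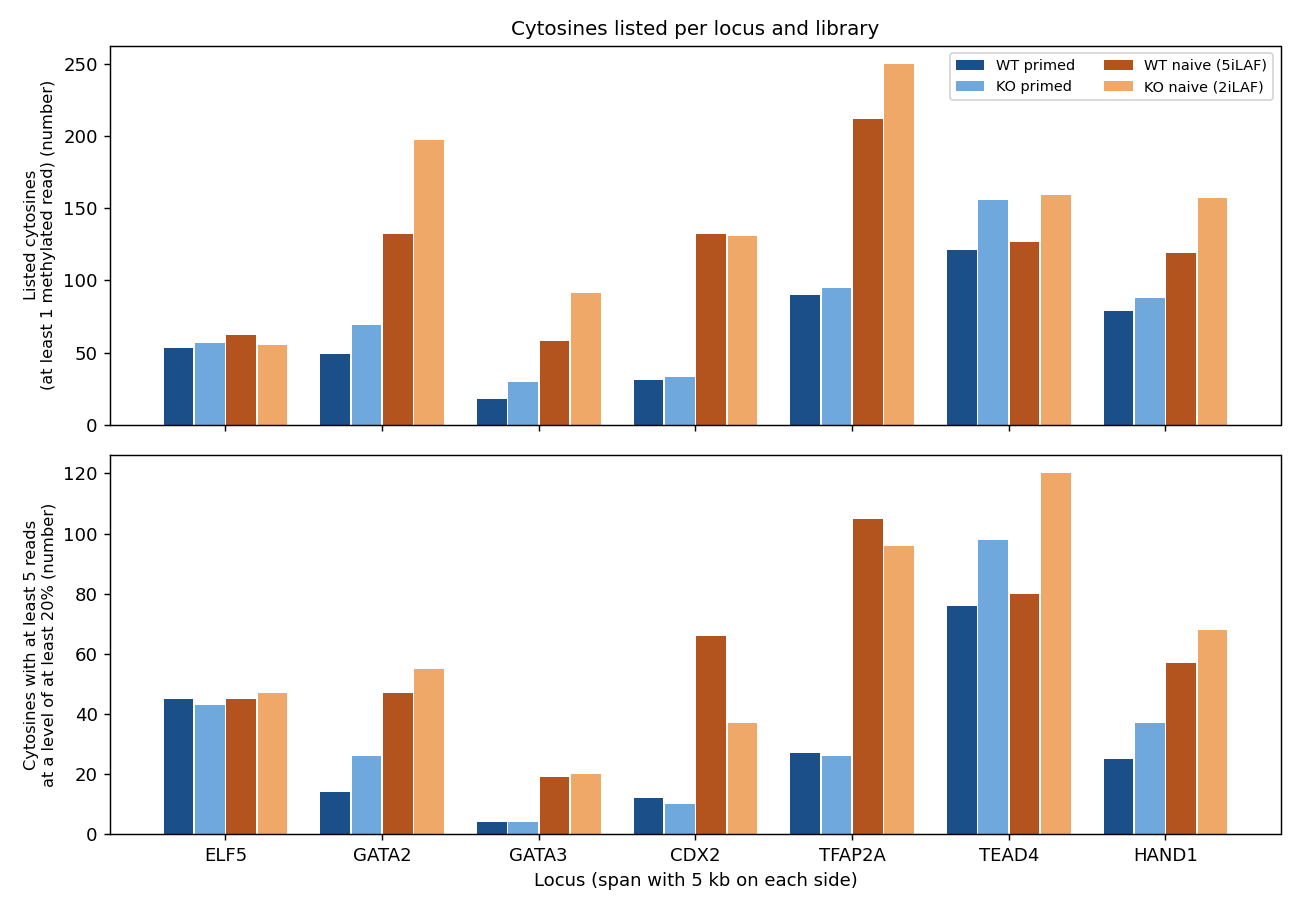
Number of cytosines listed (top) and number with at least 5 reads and a level of at least 20% (bottom) per locus, for the 4 libraries as bars; each span includes 5 kb on both sides. CDX2, GATA2, GATA3 and TFAP2A bars are several times higher in the naive (orange) than in the primed (blue) libraries, while ELF5 and TEAD4 bars are alike.

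At the CDX2 start the naive libraries parted. In the CDX2 window of 300 bases, of which the first 250 are printed, 1 CpG site was listed in WT primed, 0 in KO primed, 7 in WT naive and 0 in KO naive. Methylated reads summed over these sites were 1, 0, 19 and 0, and a read that spans several sites is counted at each. The 7 sites, from 92 bases before to 29 bases after the placed start, stood at 25% to 66.7% in WT naive at 3 to 11 reads each. In the tile that starts 0.452 kb inside the gene (chr13:28542001-28543000), 14 cytosines were listed in WT naive and 8 in KO naive, 11 and 0 of them at 20% or above with at least 5 reads, and their median level was 46.2% and 5.13%. Between primed libraries this tile was alike, with 5 and 6 listed. KO naive was the deeper library. Over all 7 spans 31.6% of the 1408 cytosines were listed in KO naive and not in WT naive, beside 19% of the series, and 17.5% the other way, beside 7.57%. At CDX2 these shares were 29.4% and 29.9%. Between primed libraries 16.4% of the cytosines of the spans were listed in KO only, beside 12.1%, and 10.2% in WT only, beside 8.75%. A site that is unlisted may lack coverage, and the tables do not say which.

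**Figure D5:**
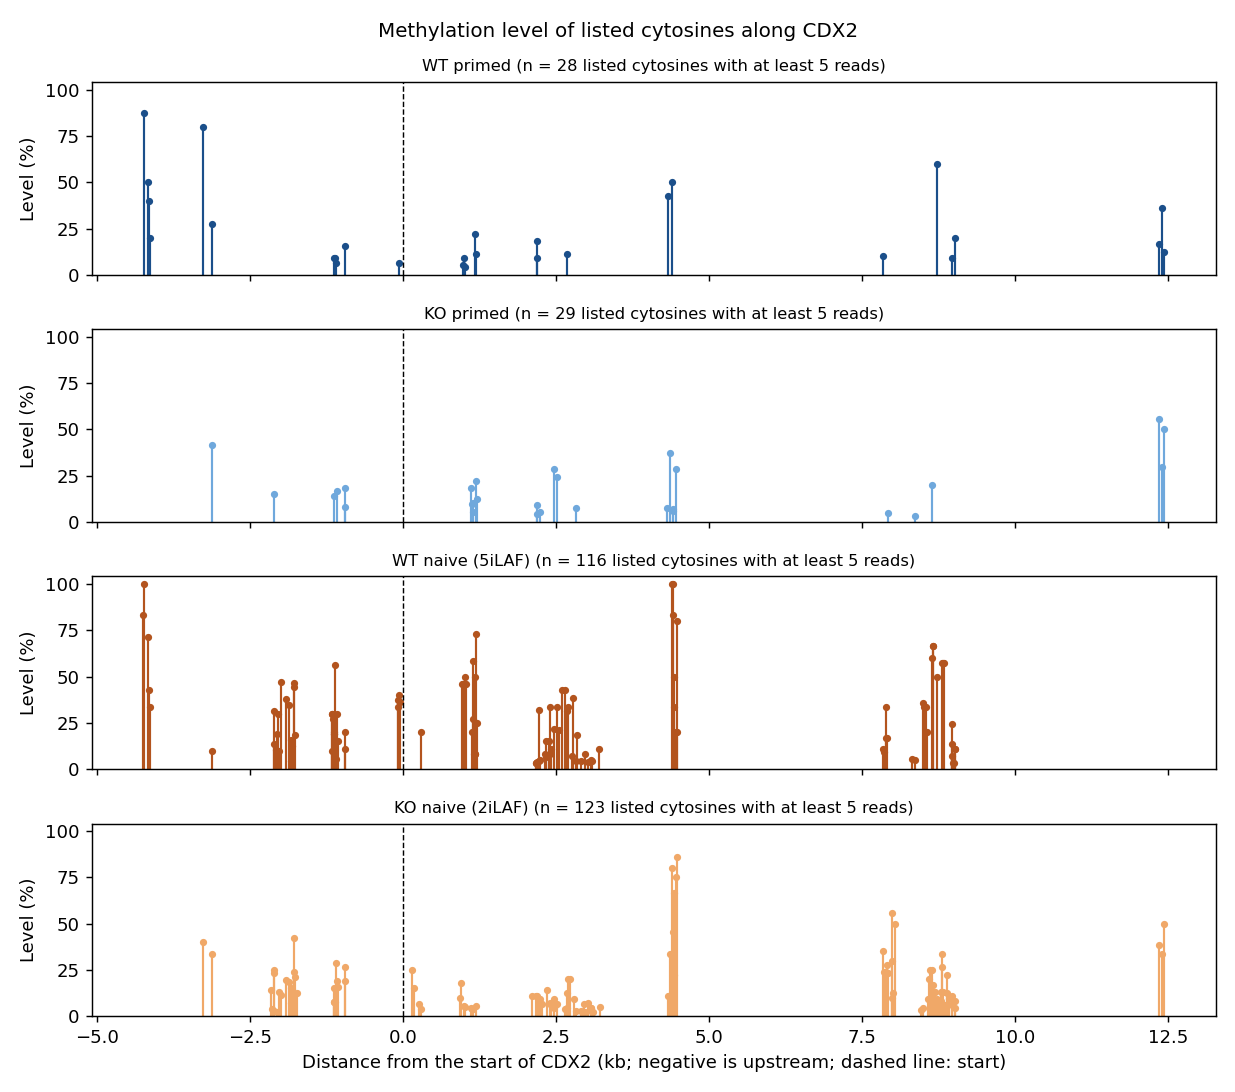
Methylation level (%, vertical axes) of listed CDX2 cytosines with at least 5 reads against distance from the placed start (kb, negative is upstream, dashed line at the start), in 4 panels by library. The primed panels hold 28 and 29 cytosines and the naive ones 116 and 123; just upstream of the start only WT naive shows a run of sites, at 33.3 to 40.0%.

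The other placed promoters, ELF5 aside, held small counts of listed sites. In the 300-base GATA2 window 3 sites were listed in WT primed, 0 in KO primed, 9 in WT naive and 10 in KO naive. Methylated reads, summed over sites here and below, were 4, 0, 18 and 25. The printed 250 bases held 3, 0, 6 and 9 of the listed sites. Over the whole 300-base window levels ran from 5.26 to 40.0% in WT naive and from 8.33 to 77.8% in KO naive. At TFAP2A 2, 1, 3 and 4 sites were listed and at HAND1 0, 1, 1 and 4, with at most 8 methylated reads in a library. The window of the 1 placed GATA3 entry ran the other way, with 3, 2, 1 and 1 sites listed and 4, 4, 1 and 1 methylated reads. Its start at 8091817 lies before the GATA3 span, which begins at 8096000. The other GATA3 entries could not be placed, so their promoters were not examined. Inside TFAP2A the tile chr6:10410001-10411000 stood out, with 11, 13, 54 and 35 listed cytosines in the library order, of which 2, 2, 37 and 16 reached 20% with at least 5 reads.

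With each genotype taken as a pair, the state was compared over 2 pairs with a two-sided exact permutation test, whose smallest p is 0.5. The naive minus primed difference of all members was -5.06 points ± 3.46 (SD, n = 2 pairs, exact p = 0.5), lower in 2 of 2 pairs. ELF5 differed by -30.7 points ± 12.8, TEAD4 by -13.8 ± 4.04, TFAP2A by 10.6 ± 1.19 and HAND1 by 20.1 ± 16.6, each with the same sign in 2 of 2 pairs and an exact p of 0.5. The HAND1 value rests on its upstream tile, since the other 8 cytosines differed by -0.612 points ± 9.88 with opposite signs in the pairs. GATA2 and CDX2 had opposite signs as well.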

How the data were processed

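Genomic DNA of H9 cells was captured and bisulfite sequenced, with a conversion of 99% per the labels' protocols. Reads were mapped to hg19 (GRCh37) per the submitters' processing notes; aligner, caller and duplicate handling: not given in the sources used here. Raw counts of reads stand in the deposited coverage columns, and the level column holds the fraction of them that was methylated, per the file headers. Per the file contents, the authors listed only cytosines with at least 1 methylated read.

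Tables were joined by chromosome, position and strand, leaving out chromosome Y. Levels were methylated over context reads, averaged with equal weight per cytosine. Fisher's exact tests (two-sided) were run on all 907719 cytosines with Benjamini-Hochberg adjustment, in Python 3.11.15 with numba 0.67.0, scipy 1.17.1 and statsmodels 0.14.6, after testing on simulated data. Intervals are Wilson 95%, cover counting error only and take the counts as independent. Promoter sequences came from RefSeq (GRCh38.p14), and its coordinates were not used. A list of other trophoblast genes was not used, because no hg19 annotation was used here.

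The 7 loci, tests and lists were chosen with earlier results of these data known. Within a locus the text names tiles of at least 5 cytosines (the nearest to the start and the largest differences) and called cytosines; other tiles, the strand comparison at HAND1 and the listing at CDX2, GATA2 and TFAP2A were chosen after their values were seen. Alternatives were coverage minimums of 10 and 20 reads, a limit of 100 reads, filling in unlisted cytosines at 0, merged strands, no flank, other weights, each library's own cytosines, scaled reads and stricter size rules.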

Additional observations from a re-analysis of the deposited data

Results flagged for a closer look

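At 2 loci, at HAND1 outside its upstream tile and at 2 of the 9 tiles with at least 5 cytosines the naive minus primed difference had opposite signs in WT and KO, with 1 library on each side, and the difference between the genotypes was not tested. GATA2 differed by 1.51 points in WT and by -13.0 in KO, a gap of 14.5 points over 11 cytosines. CDX2 differed by 13.2 points in WT and by -8.14 in KO, a gap of 21.4 points over 3 cytosines. The TEAD4 tile chr12:3103001-3104000 differed by -0.543 points in WT and by 9.60 in KO, a gap of -10.1 points over 7 cytosines, where KO primed was the low library at 74.5%. The TEAD4 tile chr12:3108001-3109000 differed by 1.97 points in WT and by -7.87 in KO, a gap of 9.83 points over 6 cytosines. HAND1 outside its upstream tile differed by 6.37 points in WT and by -7.60 in KO, a gap of 13.97 points over 8 cytosines. Of the 36 tiles with fewer than 5 cytosines, 9 had opposite signs too.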

How the results depend on the processing

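The mean over all members combines loci that differed in opposite directions, and the cause of its shifts was not tested. For WT naive against WT primed (-2.61 points) it was 4.52 with at least 10 reads (86 cytosines), 17.4 with at least 20 (10 cytosines), 3.52 with unlisted cytosines filled in at 0, -11.1 without the HAND1 tile, 8.56 weighted by reads, -8.29 over each library's own cytosines and 2.09 with equal weight per locus. For KO naive against KO primed (-7.50) it was -4.52, -1.71, -2.81, -11.7, -3.99 and -14.8 under the first 6 of these settings. For KO against WT primed (4.63) it was 15.0 with at least 20 reads, 14.3 weighted by reads and 0.113 over each library's own cytosines, and for KO against WT naive (-0.261) -4.14 with at least 20 reads, -3.39 filled in and -6.38 over each library's own cytosines. Over both genotypes (-5.06) it turned to 0.000346 with at least 10 reads, 7.84 with at least 20 and 0.356 filled in, and was -11.4 without the HAND1 tile.

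Calls in WT naive against WT primed (13 lower, 19 higher) became 1 and 4 with at least 20 reads and 0 and 0 with scaled reads; 8 were lower by 50 points, and 29 were higher filled in and 4 without the HAND1 tile. In KO (20 lower, 5 higher) they became 11 and 3 with at least 10 reads, 1 and 0 with at least 20, and 0 and 0 with scaled reads; 9 were lower by 50 points, and 8 were higher filled in and 3 without the tile. KO against WT primed (5 higher) gave 3 with at least 20 reads, 3 with merged strands, 1 without the tile and 0 with scaled reads. KO against WT naive (2 lower, 1 higher) gave 0 and 0 with at least 20 reads and with scaled reads, 1 lower without cytosines over 100 reads and 1 lower without the tile, and 0 higher with at least 10 reads.

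Tiles past the size rule in WT (2 lower, 1 higher) became 0 lower with at least 20 reads, 1 lower with at least 10 cytosines, 0 and 0 by 50 points, 3 higher filled in and 0 higher without the HAND1 tile. In KO (1 lower) they became 0 with at least 20 reads, 2 with merged strands, 0 with at least 10 cytosines and 0 by 50 points. KO against WT primed (0) gave 1 higher with at least 20 reads, and KO against WT naive (0) 1 lower and 1 higher filled in and 1 higher with at least 10 reads.

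Of 28 differences of single loci, 16 changed sign under at least 1 alternative: 3 in WT and 3 in KO from primed to naive, 5 between primed and 5 between naive libraries. In WT these were GATA2 (1.51 to -6.77), GATA3 (7.35 to -2.44) and CDX2 (13.2 to -10.98), each with at least 10 reads. In KO GATA2 (-13.0) was 9.48 with at least 20 reads (2 cytosines), CDX2 (-8.14) was 7.66 filled in, and HAND1 (8.39) was -7.60 without its tile. GATA2 between primed libraries (11.4) was -3.36 and ELF5 between naive libraries (13.9) -4.87 with at least 20 reads (2 and 1 cytosines). ELF5, TEAD4 and TFAP2A kept their naive minus primed direction in both genotypes wherever a value could be computed. At 13 to 22 reads per member and 1 library per group, small differences at single sites could not be detected. The genotypes were the only pairs; a replicate block was not fitted, because each group holds 1 library and the labels carry no replicate numbers.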
